A study of Mus musculus with 4 samples.

Results

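The genes of catecholamine synthesis, storage and breakdown were examined in RNA-seq of mouse sympathetic ganglia. The 9 genes were chosen by name for their known role: *Th*, *Ddc*, *Dbh*, *Pnmt* and *Gch1* for synthesis, *Slc18a1* and *Slc18a2* for vesicular storage, *Slc6a2* for reuptake and *Maoa* for breakdown. Of these, 8 were listed in all 4 libraries and 1, *Pnmt*, in none, out of 17667 genes listed in at least 1 library and 15275 listed in all. All ganglia came from levels T1–T4 of C57BL/6 mice aged 12 weeks that had spent 1 day at 5 °C, so no library shows the ganglion without cold. The 4 libraries were WT_1 and WT_2 from WT mice, 1 library from AdNTF3-Tg mice, which overexpress the neurotrophin NT-3 under the adiponectin promoter and therefore in adipocytes, and 1 from TRKC+/- mice, which carry a single functional copy of the gene of the NT-3 receptor TRKC in the whole body. Each library was made from RNA pooled over several mice, so a mutant genotype had 1 library and no replicate of its own.

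Noradrenaline is made in sympathetic neurons from tyrosine. Tyrosine hydroxylase makes L-DOPA in the rate-limiting step, aromatic L-amino acid decarboxylase turns it into dopamine, and dopamine β-hydroxylase completes the synthesis inside the vesicle. Vesicular monoamine transporters load the amine for release, the noradrenaline transporter returns it to the terminal, and monoamine oxidase degrades what escapes into the cytosol. The comparison asked whether the ganglia that innervate brown fat and other thoracic targets held more or less of this machinery when adipocytes made more NT-3 or when its receptor was reduced.

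Total reads on genes lay between 8665955 and 8894985 per library, and 16277 to 16587 genes were listed. The targeted gene *Ntrk3*, which encodes TRKC, had 2.45 FPKM (78 reads) in WT_1, 2.52 FPKM (83 reads) in WT_2, 2.72 FPKM (91 reads) in the library labelled TRKC+/- and 2.32 FPKM (76 reads) in AdNTF3-Tg. FPKM is the read count scaled to transcript length and library size. *Ntrk3* was thus not lower in the library labelled TRKC+/-, with counting intervals of the log2 ratio from −0.27 to 0.64 against WT_1 and −0.32 to 0.57 against WT_2. Every direction given for that library rests on a library in which the reads of the targeted gene were not lower. The study itself reports reduced expression of this gene in ganglia of TRKC+/- mice, measured apart from these libraries. The labels do not name the part of the gene that was changed. *Ntf3*, which encodes NT-3, was listed only in the library labelled TRKC+/-, with 2 reads. Skeletal muscle genes stood apart between the WT libraries: 7 of 7 were higher in WT_1, with a summed level of 85.8 FPKM against 3.02 FPKM in WT_2, 38.4 FPKM in the library labelled TRKC+/- and 31.0 FPKM in AdNTF3-Tg. The labels do not say which WT library was raised with which mutant, so each mutant library was compared with both.

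*Th* and *Dbh*, the pair of genes that mark noradrenergic cells and hold the most reads here, are shown by the bases before their start sites. Both windows come from RefSeq on GRCm38.p6, cover the 250 bases upstream of the start site and are written 5′ to 3′ on the strand of the gene. Capitals mark matches on either strand to a cAMP response element (TGACGTCA), an AP-1 site (TGANTCA) or a CCAAT box (CCAAT), and none of the matches shown overlaps another. *Th* lies on the minus strand, with its window at chr7:142899996-142900245, and *Dbh* on the plus strand, with its window at chr2:27165257-27165506.
Th: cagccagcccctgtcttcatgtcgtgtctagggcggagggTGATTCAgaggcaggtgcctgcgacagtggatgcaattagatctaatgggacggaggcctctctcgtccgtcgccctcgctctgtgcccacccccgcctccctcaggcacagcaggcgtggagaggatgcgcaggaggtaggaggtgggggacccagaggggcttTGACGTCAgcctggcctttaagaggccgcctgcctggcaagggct
Dbh: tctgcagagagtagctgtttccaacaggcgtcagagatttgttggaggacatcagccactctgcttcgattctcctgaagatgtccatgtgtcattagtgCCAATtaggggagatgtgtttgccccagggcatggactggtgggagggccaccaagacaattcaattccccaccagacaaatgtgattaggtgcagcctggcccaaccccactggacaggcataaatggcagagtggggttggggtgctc
The *Th* window held an AP-1 match from −210 to −204 and the full response element from −45 to −38, counted back from the start site. The *Dbh* window held a CCAAT box from −150 to −146. Among 32851 such windows in the RefSeq table, 1.55% held the response element, 6.75% an AP-1 match and 33.8% a CCAAT box. The table held 7 windows for 6 of the 9 genes (*Th*, *Ddc*, *Dbh*, *Gch1*, *Slc18a2* and *Maoa*), and *Th* alone among them had the response element. These matches describe letters and were not tested for binding.

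The enzymes of the main chain were among the most abundant transcripts of the ganglion. *Th* (Entrez 21823, NCBIM37 chromosome 7, 150078657 to 150117033) had 2680.4 FPKM in WT_1, 2631 FPKM in WT_2, 2753 FPKM in the library labelled TRKC+/- and 2576 FPKM in AdNTF3-Tg. It ranked between 3 and 4 among all genes of a library by FPKM. The 4 values lay close together, with AdNTF3-Tg lowest and the library labelled TRKC+/- highest. *Dbh* (Entrez 13166, chromosome 2, 27020753 to 27038720) had 2154 FPKM in WT_1, 2099.9 FPKM in WT_2, 2169.9 FPKM in the library labelled TRKC+/- and 2152 FPKM in AdNTF3-Tg, at ranks 7 to 9. The AdNTF3-Tg value fell between the WT values. *Ddc* (Entrez 13195, chromosome 11, 11714104 to 11798047) had 692 FPKM in WT_1, 749 FPKM in WT_2, 689.55 FPKM in the library labelled TRKC+/- and 699 FPKM in AdNTF3-Tg. WT_2 was the highest of the 4 for this decarboxylase, and the other 3 libraries lay within a narrow band. The level of *Th* was 1.20 to 1.27 times that of *Dbh* and 3.51 to 3.99 times that of *Ddc* within each library, on the FPKM scale, which is per length.

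*Gch1* (Entrez 14528, chromosome 14, 47773570 to 47809088) encodes the enzyme that starts the synthesis of tetrahydrobiopterin, the cofactor of tyrosine hydroxylase. It had 178 FPKM in WT_1, 199 FPKM in WT_2, 184 FPKM in the library labelled TRKC+/- and 171 FPKM in AdNTF3-Tg. AdNTF3-Tg was below both WT libraries, while the library labelled TRKC+/- lay between them. *Pnmt* (Entrez 18948, chromosome 11, 98247764 to 98249495), which converts noradrenaline into adrenaline in the adrenal medulla, was not listed in any library.

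The vesicular transporters showed the widest spread, and they ran in opposite directions between the WT libraries. *Slc18a2* (Entrez 214084, chromosome 19, 59335368 to 59370502), which encodes VMAT2, the form of sympathetic neurons, had 385 FPKM in WT_1, 468 FPKM in WT_2, 417 FPKM in the library labelled TRKC+/- and 474 FPKM in AdNTF3-Tg. WT_1 was the lowest, and AdNTF3-Tg stood beside WT_2. *Slc18a1* (Entrez 110877, chromosome 8, 71561610 to 71613134), which encodes VMAT1, the form known from chromaffin and small intensely fluorescent (SIF) cells, had 29.7 FPKM (791 reads) in WT_1, 22.5 FPKM (608 reads) in WT_2, 29.4 FPKM (801 reads) in the library labelled TRKC+/- and 25.9 FPKM (695 reads) in AdNTF3-Tg. WT_2 was the lowest here, and AdNTF3-Tg lay between the WT libraries. The level of *Slc18a2* was therefore 13.0 times that of *Slc18a1* in WT_1, 14.2 times in the library labelled TRKC+/-, 18.3 times in AdNTF3-Tg and 20.8 times in WT_2. *Slc18a1* overlaps *Atp6v1b2*, a vacuolar proton pump subunit at 799 to 864 FPKM, and since the sources do not say whether the counting used strand, reads of their shared stretch cannot be told apart.

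For reuptake and breakdown, *Slc6a2* (Entrez 20538, chromosome 8, 95483978 to 95525566), the noradrenaline transporter gene, had 667 FPKM in WT_1, 698 FPKM in WT_2, 708 FPKM in the library labelled TRKC+/- and 716 FPKM in AdNTF3-Tg. Both mutant libraries were above both WT libraries, and 3 of the 4 values lay within 698 to 716 FPKM. *Maoa* (Entrez 17161, chromosome X, 16196824 to 16264944) had 188 FPKM in WT_1, 203 FPKM in WT_2, 188 FPKM in the library labelled TRKC+/- and 196 FPKM in AdNTF3-Tg. WT_2 was again the highest, and AdNTF3-Tg lay between the WT libraries. In order of mean level the genes ran *Th*, *Dbh*, *Ddc*, *Slc6a2*, *Slc18a2*, *Maoa*, *Gch1* and *Slc18a1*. The ranges of *Ddc* and *Slc6a2* overlapped across the 4 libraries, as did those of *Maoa* and *Gch1*, and the other neighbours were separate.

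**Figure D1:**
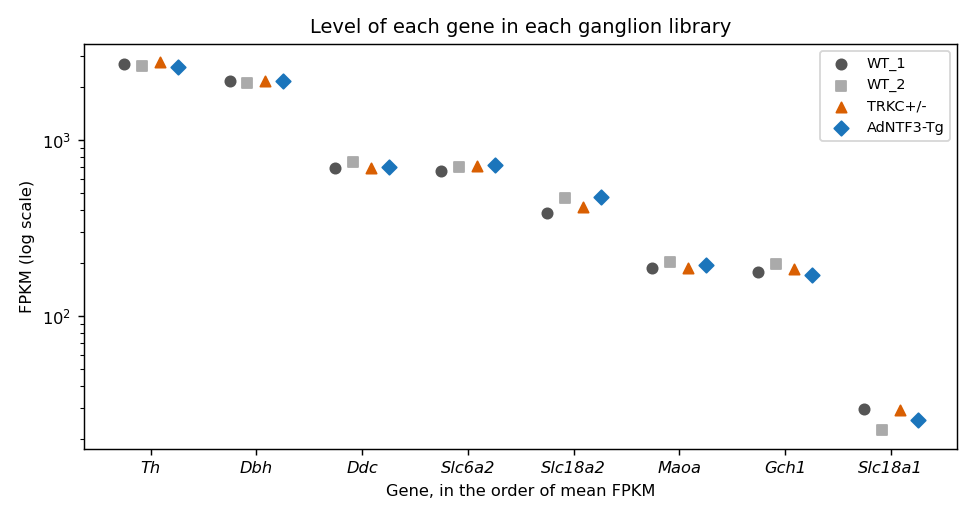
Level of each gene in each library, with FPKM on a log axis and the genes along the horizontal axis in the order of their mean. Each point is 1 library. *Th* and *Dbh* sit at 2099.9 FPKM or more in all 4 libraries and *Slc18a1* at 29.7 FPKM or less, and the points of a gene lie close together beside the distance between most genes.

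The 8 genes together took 1.76% of the reads in WT_1, 1.79% in WT_2, 1.80% in the library labelled TRKC+/- and 1.79% in AdNTF3-Tg. The mean of the WT libraries was 2656 ± 34.8 FPKM for *Th*, 2127 ± 38.2 FPKM for *Dbh*, 683 ± 21.8 FPKM for *Slc6a2* and 427 ± 58.8 FPKM for *Slc18a2* (SD, n = 2). Fewer sympathetic neurons and less RNA per neuron cannot be told apart in such bulk RNA.

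None of the catecholamine genes moved past the cutoff in AdNTF3-Tg. The cutoff was an absolute log2 ratio of at least 0.5 in the same direction against both WT libraries, on the scale of log2(FPKM + 0.1), which understates changes of low genes. By this rule 0 of 8 genes passed, where 871 of 15275 genes (5.7%) did. Of the 6798 genes averaging 10 FPKM or more, the level range of these 8, 27 (0.397%) passed, so 0 of 8 is not particular to them. Against the mean of the WT libraries, the log2 ratio of AdNTF3-Tg was −0.04 for *Th*, −0.04 for *Ddc*, 0.02 for *Dbh*, −0.14 for *Gch1*, 0.00 for *Slc18a1*, 0.16 for *Slc18a2*, 0.07 for *Slc6a2* and 0.01 for *Maoa*. The signs for *Th* and *Ddc* turned when FPKM was rescaled to the same sum in each library, to 0.01 for both. The value near 0 for *Slc18a1* averaged −0.20 against WT_1 and 0.20 against WT_2. The sign also depended on the WT library for *Ddc* (0.01 against WT_1 and −0.10 against WT_2), for *Maoa* (0.06 and −0.05) and for *Dbh* (−0.001 and 0.04). For *Slc18a2* the ratio was 0.30 against WT_1 and 0.02 against WT_2. For *Gch1* it was −0.06 against WT_1 and −0.22 against WT_2.

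None passed in the library labelled TRKC+/- either. There the count was 0 of 8 genes, against 653 of 15275 (4.27%) and, among genes averaging 10 FPKM or more, 18 of 6798 (0.265%). The log2 ratio to the mean of the WT libraries was 0.05 for *Th*, −0.06 for *Ddc*, 0.03 for *Dbh*, −0.03 for *Gch1*, 0.18 for *Slc18a1*, −0.03 for *Slc18a2*, 0.05 for *Slc6a2* and −0.06 for *Maoa*. The value for *Slc18a1* was −0.01 against WT_1 and 0.38 against WT_2, so the choice of the WT library decided it. The sign turned with the WT library for *Slc18a2* too, from 0.11 against WT_1 to −0.17 against WT_2, and for *Gch1*, from 0.05 to −0.11. Both comparisons used the same WT libraries.

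Between the WT libraries 0 of 8 genes passed 0.5, where 2044 of 15275 (13.4%) did, and 102 of the 6798 genes of at least 10 FPKM (1.5%). In log2, WT_1 over WT_2 was 0.40 for *Slc18a1*, −0.28 for *Slc18a2*, −0.16 for *Gch1*, −0.11 for both *Ddc* and *Maoa*, −0.07 for *Slc6a2*, 0.04 for *Dbh* and 0.03 for *Th*. For 6 of the 8 genes in AdNTF3-Tg and 7 of 8 in the library labelled TRKC+/-, the difference from the WT mean was smaller than the difference between the WT libraries, as it was for 7908 and 8870 of the 15275 genes. The median absolute log2 difference of the 8 genes was 0.04 in AdNTF3-Tg, 0.05 in the library labelled TRKC+/- and 0.11 between the WT libraries, and over all genes 0.15, 0.12 and 0.15. Their median signed difference was 0.0041 and 0.0011, beside 0.0017 and 0.0049 over all genes.

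AdNTF3-Tg fell inside the range of the WT libraries for 4 of the 8 genes, above it for 2 and below it for 2, while 67.6% of all genes fell outside. The genes above were *Slc18a2* and *Slc6a2* and those below *Th* and *Gch1*. The library labelled TRKC+/- fell inside for 3 genes, above for 3 (*Th*, *Dbh* and *Slc6a2*) and below for 2 (*Ddc* and *Maoa*, at log2 ratios of −0.0047 and −0.0041 to WT_1), with 62.6% of all genes outside. It lay nearer to WT_1 than to WT_2 for 7 of the 8 genes, the exception being *Slc6a2*, and for 54.4% of all genes. AdNTF3-Tg lay nearer to WT_1 for 4 genes and nearer to WT_2 for 4, beside 45.6% and 53.0% of all genes.

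The exact Clopper-Pearson 95% interval of the read ratio excluded 0 on the log2 scale for 8 of 8 genes between the WT libraries, where it did for 20.5% of all genes. It did so for 6 of 8 in AdNTF3-Tg against either WT library, and in the library labelled TRKC+/- for 3 of 8 against WT_1 and 8 of 8 against WT_2. The share of all genes was 25.9% and 20.7% in AdNTF3-Tg against WT_1 and WT_2, and 14.2% and 19.8% in the library labelled TRKC+/-. Such intervals narrow with depth, and 7 of the 8 genes averaged at least 4000 reads. Of all 304 genes at that depth, the interval excluded 0 for 54.6% between the WT libraries, for 71.7% and 64.8% in AdNTF3-Tg and for 49.0% and 54.3% in the library labelled TRKC+/-. Of the 7 genes at that depth, it did so for 7, for 5 and 5, and for 3 and 7, in the same order. These intervals cover counting error only and compare libraries, not genotypes. For *Slc18a1*, the gene with the fewest reads, the interval of WT_1 to WT_2 ran from 0.26 to 0.56.

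**Figure D2:**
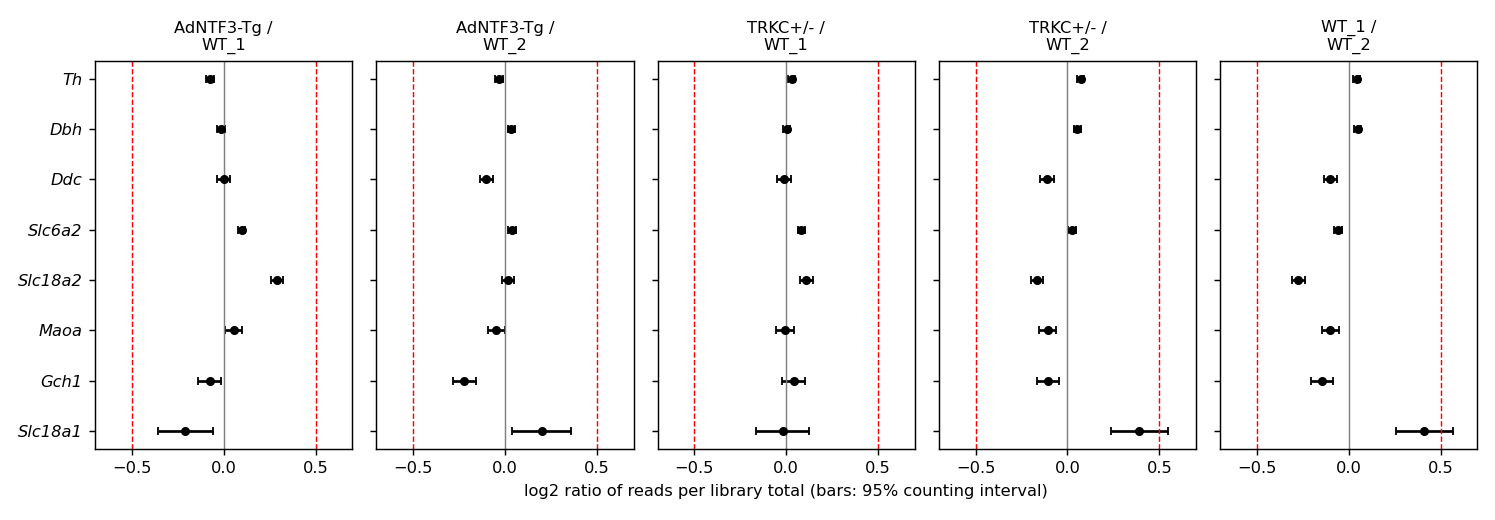
Log2 ratio of reads per library total for each gene in 5 pairs of libraries, with 95% counting intervals as bars and the cutoff of 0.5 as dashed lines. All points lie within the cutoff, and the rightmost panel, between the WT libraries, holds the highest point of all, *Slc18a1* at 0.41.

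edgeR's quasi-likelihood test, in which the WT pair supplied the 1 residual degree of freedom and a lone mutant library was assumed to vary like WT, called none of the 8 genes. Adjusted p-values (Benjamini-Hochberg, over 14156 genes) ran from 0.818 to 0.992 in AdNTF3-Tg and were 0.999 for each gene in the library labelled TRKC+/-. No gene of the 8 had an unadjusted p under 0.05 in either comparison, where 832 (5.88%) and 273 (1.93%) of all genes did. For *Th* the edgeR log2 fold change was −0.05 (SE 0.04, 95% interval −0.15 to 0.06) in AdNTF3-Tg, which spans a change of −9.77% to 3.99%. In the library labelled TRKC+/- it was 0.05 (SE 0.04, interval −0.05 to 0.15), or −3.60% to 11.05%. For *Dbh* the bounds were −5.70% to 8.60% and −5.08% to 9.31%. All 8 intervals lay within 0.5 of 0 in AdNTF3-Tg, from −0.38 to 0.40 at the extremes. In the library labelled TRKC+/- 7 of 8 did, and the exception was *Slc18a1*, from −0.19 to 0.54. Across all genes the test called 0 genes in AdNTF3-Tg (0.0%) and 1 in the library labelled TRKC+/- (0.00706%), *Ucp1* of brown adipocytes, at a log2 fold change of −2.62 (SE 0.15, edgeR adjusted p = 0.0021). That call was lost without the count filter and with limma-trend, which called 0 genes each. The p-values and intervals measure only the spread between these libraries, which the test draws toward that of other genes. They thus rest on more than the WT pair of each gene. The SE was worked back from the fold change and the test statistic. The WT pair may differ by cohort.

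**Figure D3:**
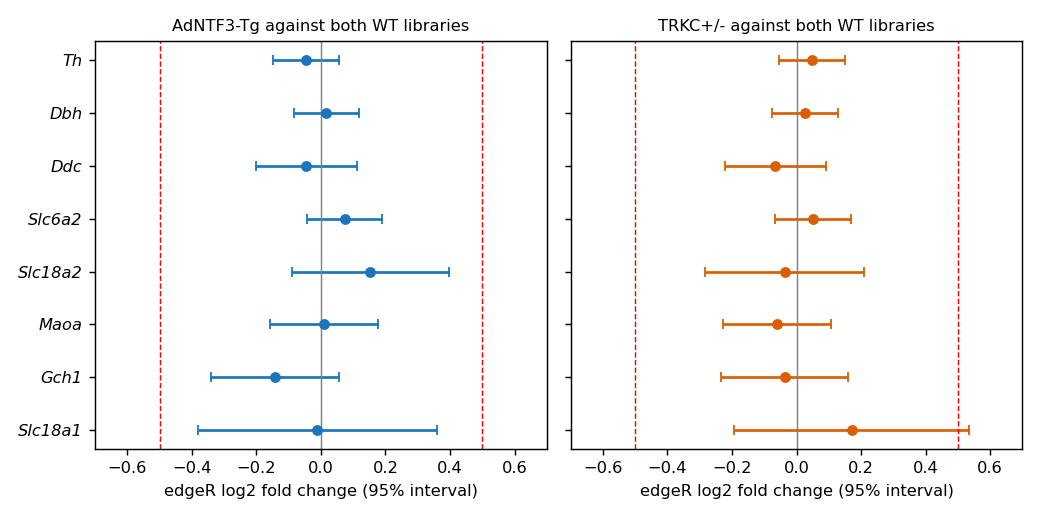
edgeR log2 fold change of each gene against the WT libraries, for AdNTF3-Tg on the left and the library labelled TRKC+/- on the right, with 95% intervals as bars and the cutoff of 0.5 as dashed lines. Every interval includes 0, and only that of *Slc18a1* on the right reaches past 0.5, to 0.54.

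The levels were also set against neuronal reference genes rather than against all RNA. Some reference genes moved themselves, so the relative values below are not changes per neuron. In AdNTF3-Tg the log2 difference from the WT mean was 0.32 for *Nefm*, 0.19 for *Nefl* and −0.12 for *Uchl1* of the pan-neuronal list. It was −0.26 for *Npy* of the noradrenergic identity list. Relative to the mean log2 level of 10 pan-neuronal genes (such as *Snap25*, *Stmn2* and *Uchl1*), the log2 difference of AdNTF3-Tg from WT was −0.08 for *Th*, −0.08 for *Ddc*, −0.02 for *Dbh*, −0.18 for *Gch1*, 0.12 for *Slc18a2* and 0.03 for *Slc6a2*. In the library labelled TRKC+/- it was 0.03 for *Th*, −0.08 for *Ddc*, 0.01 for *Dbh*, 0.17 for *Slc18a1*, −0.05 for *Slc18a2* and −0.08 for *Maoa*. Several of these signs depended on the reference. With the noradrenergic identity list in its place, the library labelled TRKC+/- was at −0.0073 for *Th*, −0.03 for *Dbh* and −0.0056 for *Slc6a2* (0.03 against the pan-neuronal genes). AdNTF3-Tg was then at 0.03 for *Dbh*, and *Slc18a1* and *Maoa* turned from −0.04 to 0.0083 and from −0.03 to 0.02. With all 11 pan-neuronal genes, the library labelled TRKC+/- was at −0.04 for *Th*, −0.06 for *Dbh* and −0.04 for *Slc6a2*, and AdNTF3-Tg was at −0.0099 for *Slc6a2*. Noradrenergic identity genes, which include the transcription factors *Phox2a* and *Hand2*, were present in every library, with *Hand2* at 234 to 247 FPKM and *Phox2a* at 142 to 168 FPKM.

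The pathway around these enzymes was described by a list of 31 other genes, which held 28 listed in all 4 libraries and 3 in none. In AdNTF3-Tg 3 of 28 were higher past the cutoff and 0 lower, beside 2.12% and 3.58% of all genes. In the library labelled TRKC+/- 2 were higher and 1 lower, beside 1.78% and 2.49%. Between the WT libraries 5 of the 28 passed, all higher in WT_1 and *Gchfr* among them at 1.58, beside 13.4% of all genes in either direction. The genes that passed in the mutant libraries had few reads, at most 21 in a library. They were *Gchfr*, *Rnls* and *Slc6a3*, the dopamine transporter gene, in AdNTF3-Tg, and *Gchfr*, *Tph2* and *Tph1* in the library labelled TRKC+/-. Those that passed between the WT libraries had up to 135 reads, for *Aldh1a1*. The median log2 difference of the 28 was 0.01 in AdNTF3-Tg and 0.03 in the library labelled TRKC+/-. edgeR tested 26 of them and called 0 in either comparison, with 1 at an unadjusted p under 0.05 in each.

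Among the cofactor genes, *Pts*, which encodes the enzyme after GTP cyclohydrolase in tetrahydrobiopterin synthesis, had 33.4 FPKM in WT_1, 35.2 FPKM in WT_2, 25.3 FPKM in the library labelled TRKC+/- and 30.3 FPKM in AdNTF3-Tg. Its level was lowest in the library labelled TRKC+/-, at an edgeR log2 fold change of −0.44 (interval −0.79 to −0.09, adjusted p = 0.999). *Pcbd2*, whose product also serves cofactor recycling, had its highest level in the same library, at 20.8 FPKM against 16.7 FPKM in WT_1, 14.1 FPKM in WT_2 and 16.0 FPKM in AdNTF3-Tg, a log2 difference of 0.43 from the WT mean. It had only 63 to 95 reads, and its edgeR interval there, −0.18 to 1.03, held 0. The more abundant *Pcbd1*, at 126 to 134 FPKM, was at a log2 difference of −0.08 in that library. *Spr*, of the last step of cofactor synthesis, was at a log2 difference of 0.14 there. *Qdpr*, which regenerates the cofactor, lay between 149 and 163 FPKM. *Cyb561*, the vesicle membrane cytochrome that keeps ascorbate reduced for dopamine β-hydroxylase, was as steady as the main enzymes, at 746 to 774 FPKM. *Slc7a8*, an amino acid transporter gene, had 64.4 FPKM in WT_1, 71.3 FPKM in WT_2, 66.2 FPKM in the library labelled TRKC+/- and 79.3 FPKM in AdNTF3-Tg. It was highest in AdNTF3-Tg, at an edgeR log2 fold change of 0.23 (interval 0.02 to 0.44, adjusted p = 0.817).

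For breakdown beyond *Maoa*, *Maob*, which encodes the other monoamine oxidase, had 124 to 139 FPKM and was lowest in AdNTF3-Tg, at a log2 difference of −0.14. The aldehyde reductase genes *Akr1a1* and *Akr1b3* reached 427 to 467 FPKM and 248 to 273 FPKM, also lowest in AdNTF3-Tg. No gene of these 3 passed the cutoff.

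**Figure D4:**
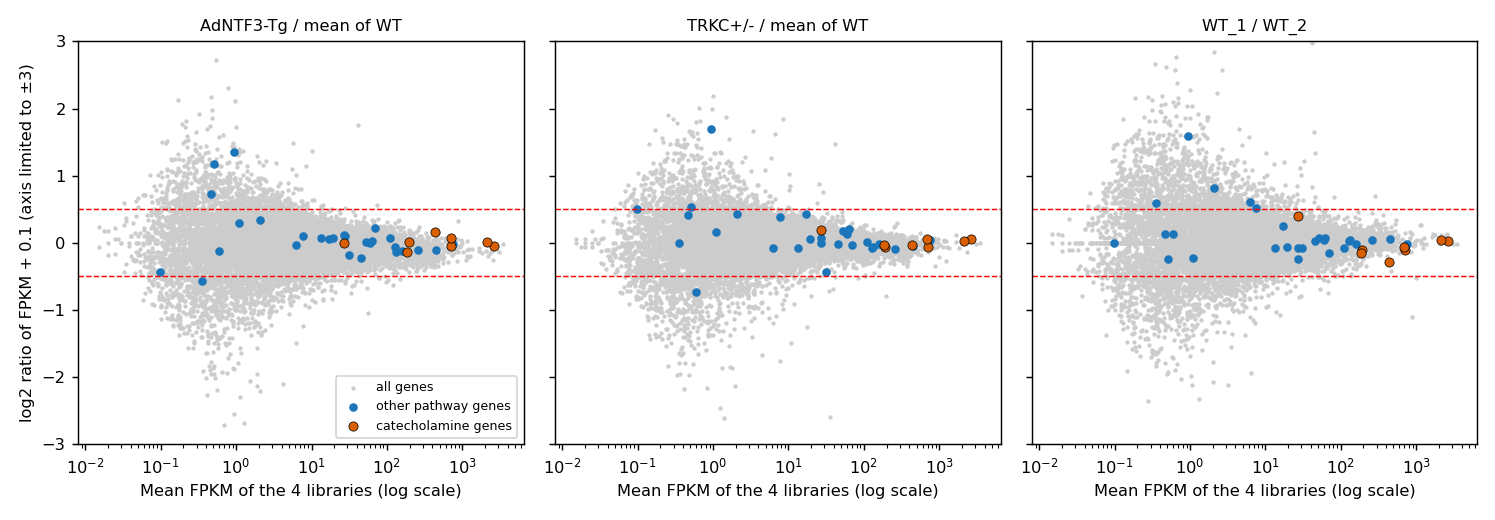
Log2 ratio against mean FPKM (log axis) for all genes in grey, the other pathway genes in blue and the 8 catecholamine genes in orange, for AdNTF3-Tg, the library labelled TRKC+/- and the WT pair. The vertical axis is limited to ±3, and the dashed lines mark 0.5. The catecholamine genes lie at the right, where the cloud is narrow, while the blue points past the lines lie near or below 1 FPKM except in the WT panel, where *Moxd1*, *Aldh1a1* and *Sult1a1* also pass.

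Markers of other cells are given beside *Slc18a1*. Glial genes summed to 2583 FPKM in WT_1 and 2613 FPKM in the library labelled TRKC+/-, and to 2344 FPKM in AdNTF3-Tg and 2241 FPKM in WT_2. The 3 fibroblast genes summed to 227, 195, 183 and 165 FPKM in that order, and the 7 mast cell genes to 7.41, 7.24, 6.98 and 4.50 FPKM. WT_2 was lowest in each of these lists, as it was for *Slc18a1*, and also in the skeletal muscle list. Other lists ran otherwise. Macrophage genes summed to 56.5 FPKM in AdNTF3-Tg and 66.1 FPKM in WT_2, and endothelial genes to 21.87 and 22.03 FPKM. AdNTF3-Tg was thus the lowest library for both. Most of the glial sum was *Apoe*, itself lowest in AdNTF3-Tg, at 1561 FPKM against 1575 FPKM in WT_2. The SIF and chromaffin marker *Penk* had 24 reads in WT_1, 15 in the library labelled TRKC+/-, 8 in AdNTF3-Tg and 5 in WT_2. *Dlk1*, of the same list, had 21, 24, 15 and 13 reads. Of the abundant genes of that list, *Chga* was lowest in WT_1, at 237 FPKM against 241 FPKM in WT_2, and *Chgb* was lowest in WT_2, at 191 FPKM against 197 FPKM in WT_1. The 4 genes summed to 437, 449, 450.5 and 433 FPKM in that order, highest in AdNTF3-Tg and lowest in WT_2. Their part in the result for *Slc18a1* was not tested. The summed pan-neuronal level changed less, from 6977 FPKM in AdNTF3-Tg to 7254 FPKM in the library labelled TRKC+/-.

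Other lists bear on what the tissue held. Of 4 adrenal cortex genes *Star* was listed, at 9.01 to 10.6 FPKM, and *Cyp11a1*, *Cyp11b1* and *Hsd3b1* were in no library. Cholinergic genes summed to 6.36 to 8.31 FPKM, sensory neuron genes to 3.59 to 8.19 FPKM, macrophage genes to 56.5 to 79.5 FPKM and endothelial genes to 21.87 to 25.97 FPKM. Brown adipocyte genes summed to 366 FPKM in WT_1, 332 FPKM in WT_2, 269 FPKM in AdNTF3-Tg and 199.5 FPKM in the library labelled TRKC+/-. The noradrenergic identity list summed to 3105 to 3648 FPKM, most of it *Npy*.

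**Figure D5:**
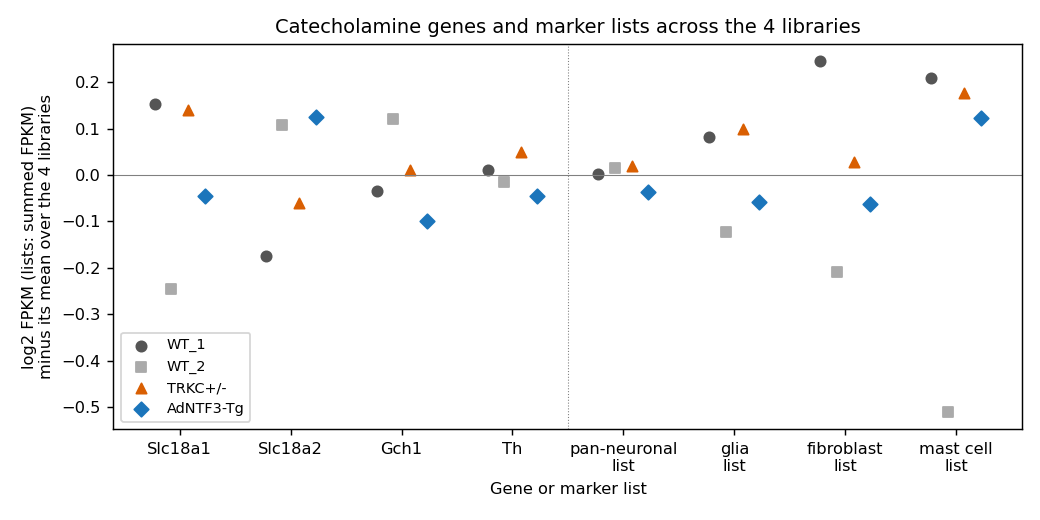
Log2 FPKM of *Slc18a1*, *Slc18a2*, *Gch1* and *Th* (left of the dotted line) and log2 summed FPKM of 4 marker lists (right), each minus its mean over the 4 libraries, with 1 point per library. *Slc18a1* is lowest in WT_2, as are the glial, fibroblast and mast cell lists, while *Slc18a2* is lowest in WT_1 and *Th* and the pan-neuronal list stay near 0. The macrophage and endothelial lists, lowest in AdNTF3-Tg, are not drawn.

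The genes whose profile over the 4 libraries was most like that of *Th*, among 12751 other genes of at least 1 FPKM, were *G3bp1*, *Tshz1* and *Pmm1*, with largest differences of 0.0073, 0.0079 and 0.0082 in centred log2 level. For *Slc18a1*, the gene of the 8 with the widest range, they were *Slc27a1* (0.0033), *Tarbp2* (0.0047) and *Pdgfra* (0.0102), of which *Pdgfra* is also on the fibroblast list. With 4 libraries such likeness is a description of these libraries.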

How the data were processed

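mRNA from T1–T4 sympathetic ganglia was measured by RNA-seq in 4 libraries, each pooled from several mice. The sample labels name the WT libraries WT_1 and WT_2. Per Entrez gene, the deposited files hold an expected count, an FPKM value and a length, all made by the authors, and genes without reads were left out. The study's methods name SOAPnuke, HISAT2, mm9 and RPKM, while the submitters' processing notes name RSEM and mm10, so the build behind the counts is uncertain. Such a mismatch, and reads divided between similar genes, could shift levels. Strand use was not stated.

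Depth was 8665955 to 8894985 reads. The WT libraries differed beyond sampling noise (mean chi-square 4.65 per gene over 13718 genes) and were counted as 2 libraries. Ratios used log2(FPKM + 0.1) over 15275 genes listed in all libraries. Expected counts were rounded and tested with edgeR 4.0.16 (R 4.3.3; TMM, filterByExpr, quasi-likelihood, Benjamini-Hochberg, threshold 0.05); DESeq2 1.42.0 and limma 3.58.1 were alternatives. The edgeR step was run on simulated data to check the code. Their dispersion was below the 0.00666 fitted to these libraries, so that check says little about the intervals given here. No label ties a WT library to a cohort.

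Named were the 9 genes, genes of fixed pathway and marker lists (noradrenergic identity, pan-neuronal, glia, chromaffin and SIF cell, adrenal cortex, cholinergic, sensory neuron, mast cell, macrophage, endothelial, fibroblast, brown adipocyte, skeletal muscle), *Ntrk3*, *Ntf3* and, for *Th* and the gene of widest range, the 3 most alike. *Atp6v1b2* and *Npcd* were added after their values were seen. *Ucp1* is on the brown adipocyte list and was singled out because edgeR called it. The genes, lists and tests were chosen with earlier results of these data known. The limit of 1 FPKM on pan-neuronal reference genes was set after the data were seen. Symbols came from RefSeq (GRCm38.p6; 17619 of 17667 identifiers, 99.7%), positions from GENCODE on NCBIM37. Some genes of the pathway and marker lists are not reported here by name.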

Additional observations from a re-analysis of the deposited data

How the results depend on the processing

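No catecholamine gene passed the cutoff in AdNTF3-Tg or the library labelled TRKC+/- under any of the 10 alternatives (pseudocounts of 1 and 0.01, a mean of at least 1 FPKM, unlisted genes as 0, median centring, equal sums, TMM, DESeq2 size factors, and without either WT library), nor between the WT libraries under the 8 that keep both, and none was called by edgeR with other settings, DESeq2 or limma. The filter and the treatment of unlisted genes cannot change a fold change of these 8 genes. With FPKM rescaled to equal sums, AdNTF3-Tg moved by more than the WT SD for *Th* (to 0.01), *Dbh* (to 0.07) and *Slc6a2* (to 0.13). Leaving out a WT library cannot exceed that SD by construction. The largest absolute value of any of them was 0.18 in the main setting, 0.38 without WT_1 and 0.30 without WT_2.

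The counts over all genes did depend on the setting. In AdNTF3-Tg the 871 genes became 165 with a pseudocount of 1, 332 with a mean of at least 1 FPKM, 1552 with unlisted genes as 0, and 2033 to 2116 without either WT library. In the library labelled TRKC+/- the 653 became 105, 209, 1315, and 1632 to 1933. For the latter, edgeR's 1 call became 2 with DESeq2 size factors and 2 with the DESeq2 Wald test (*Ucp1* and *Npcd* in both), and 0 without the count filter and 0 with limma-trend. In AdNTF3-Tg the calls were 0 in every fit, with 832 genes at an unadjusted p under 0.05 by edgeR, 64 by DESeq2 and 1382 by limma. Leaving out a WT library left no residual degree of freedom, so edgeR was not rerun that way. No paired analysis was possible because each mutant had 1 library and the labels number WT libraries only.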
